A study of Drosophila melanogaster with 2 samples.

Results

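The 39 genes described here encode transcription factors of embryonic segmentation and of neuroblasts, the stem cells of the fly nervous system. They form a list of gene names grouped by function, drawn up with earlier results of these data known. All 39 were found among the 13945 protein-coding genes on the 6 chromosome arms in Ensembl release 115. The gap class, in which maternal, terminal and head gap genes were included, held 12 genes, the pair-rule class held 8, the segment polarity class held 2 and the neuroblast class held 17. For each gene the peak summits of Invected, a homeodomain protein closely related to Engrailed, were counted in the gene or up to 2 kb outside it, and within 1 kb of any of its own transcription start sites (TSS).

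The samples were whole Drosophila melanogaster embryos of the strain inv-GFP, collected from 0 to 24 h of development, in which an insertion targeting inv makes Invected fused to enhanced GFP. Chromatin was sonicated to 200 to 800 bp, precipitated with an antibody to GFP and sequenced in 2 biological replicates. There was 1 group and no second condition, so the members could be set against other genes but not against an untreated or mutant state. A whole embryo over this span mixes all tissues and stages, so a site bound in few cells and a site bound weakly in many cannot be told apart. The number of reads in each library is unknown, which leaves the depth behind each value unknown.

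Segmentation proceeds as a cascade. Maternal gradients set the domains of the gap genes, gap proteins place the stripes of the pair-rule genes, and pair-rule proteins set the segment polarity genes, engrailed and invected among them, in a row of cells in each segment. Engrailed-type homeodomain proteins act mostly as repressors, with the corepressor Groucho. In the neuroectoderm, proneural and columnar factors pick out neuroblasts, and temporal factors then follow one another as each neuroblast divides.

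Few of these genes held a peak that passed the authors' threshold. In the larger pooled thresholded list, 6 of the 39 members (15.4%) had a summit in the gene or up to 2 kb outside it, against 37.7% of all protein-coding genes. Within 1 kb of an own TSS the count was 4 of 39 (10.3%), against 27.2% of all genes. By class the wider rule found gt and oc among the 12 gap genes, odd among the 8 pair-rule genes, neither of the 2 segment polarity genes, and SoxN, grh and pros among the 17 neuroblast genes. The narrower rule kept oc, odd, SoxN and grh. Under the wider rule the share was 16.7% of the gap, 12.5% of the pair-rule and 17.6% of the neuroblast genes, and 1 gene more or less would change the order of these classes.

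**Figure D1:**
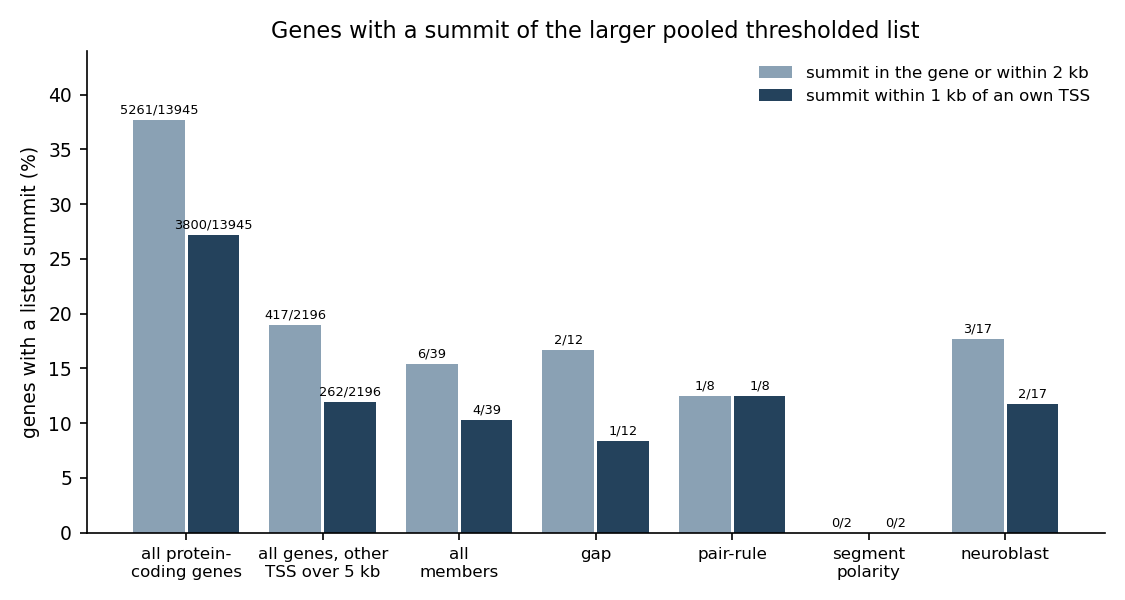
Percentage of genes (y axis) with a summit of the larger pooled thresholded list, by the wider (light bars) and the narrower rule (dark bars), in all protein-coding genes, in all genes more than 5 kb from another gene's TSS, in all members and in each class, with gene counts above the bars. All members lie at 15.4% and 10.3%, below all protein-coding genes at 37.7% and 27.2% and nearer to the isolated genes at 19% and 11.9%.

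The members stand in sparser surroundings than most genes, and the share of genes with a listed summit was lower among all genes that stand apart. The median distance from a member to the nearest TSS of another gene was 10.4 kb, against 1.38 kb over all genes. Another gene's TSS lay within 1 kb for 42.9% of all genes and for 0 of the 39 members. Among genes more than 5 kb from any other gene's TSS, 4 of 34 members (11.8%) had a listed summit within 1 kb of an own TSS, against 11.9% of 2196 such genes. By the wider rule the same restriction gave 5 of 34 members (14.7%) and 19% of genes. The difference from all genes was thus not seen at the TSS among isolated genes. This restriction was added after the data had been seen.

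Neither replicate alone gave a larger count. The list of replicate 1 held a summit at SoxN, grh and opa under both rules, 3 of 39 members against 34.9% of all genes by the wider rule and 25.4% by the narrower. The list of replicate 2 held grh alone, against 27% and 18.5%. In the conservative pooled list the members were SoxN, grh and gt by the wider rule, against 32.1%, and SoxN and grh at the TSS, against 23.1%. The gene grh was thus the single member listed in both replicates and in both pooled lists. Other windows around the genes gave other counts. In the gene itself, with no flank, the larger pooled list had a summit at odd and grh, 2 of 39 members against 9.54% of all genes. With a flank of 10 kb the count was 10 of 39, against 61.1%, and within 2 kb of an own TSS it was 5 of 39, against 31.5%. In the stronger 50% of listed peaks no member had a summit by either rule, where all genes had 25.3% and 18%. Isolated genes alone were not counted under these other lists and windows.

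The listed summits at members were weak for that list, whose median signal was 132. Signal is the authors' peak height relative to a control, on a scale that is not stated, and serves here to order peaks within a list. Values of different lists, those of the replicates included, are set side by side as deposited, and a difference between replicates cannot be told apart from one of scale or depth. The 7 listed summits at members ran from 54.4 to 131, so all 7 lay below the median, grh only just. Of these, 1 was listed in both replicates, 1 in replicate 1 only and 5 in neither, and 3 were in the conservative list. On the arms the conservative list held 2549 peaks, against 3393 in the larger list, and the lists of replicates 1 and 2 held 2858 and 2129. The same shares over all listed summits were not computed. For 6 of the 7 summits at members the nearest TSS was the member's own.

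The strongest belonged to grh, which encodes Grainyhead, an epidermal transcription factor that is also the last of the neuroblast temporal series. Its peak at chr2R:17800755-17801178 had its summit 165 bp upstream of a grh TSS and a pooled signal of 131, rank 1711 of the list. The overlapping peaks had a signal of 66.3 in replicate 1 and 58.0 in replicate 2, and both replicates listed it. A second grh summit lay inside the gene, 41 bp downstream of another grh TSS and in a 5′ UTR, with a pooled signal of 54.4. There the replicates gave 34.7 and 16.0, and neither listed it.

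SoxN, a Sox factor of the early neuroectoderm, had a summit 107 bp upstream of its TSS in the peak chr2L:8825326-8825749. Its pooled signal was 82.8, with 56.7 in replicate 1 and 30.3 in replicate 2, and only replicate 1 listed it. The zinc finger pair-rule gene odd had a summit 112 bp downstream of its TSS, in the 5′ UTR, in the peak chr2L:3606432-3606855. Its signal was 72.9 in the pool, 47.0 in replicate 1 and 23.2 in replicate 2. For both genes the deposited value was higher in replicate 1, as it was at most genes.

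In the gap class, oc encodes Orthodenticle, a homeodomain protein of the head. Its summit lay 188 bp upstream of its TSS in the peak chrX:8650657-8651080, with 77.4 in the pool, 45.5 in replicate 1 and 25.5 in replicate 2. The bZIP repressor gene gt had its listed summit 1169 bp upstream of its TSS in the peak chrX:2429924-2430347, outside the 1 kb window. There the pool gave 74.5 and the replicates 37.7 and 42.2, so gt was the single one of the 7 summits that was higher in replicate 2. The conservative list held gt but not oc.

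The summit counted for pros, the gene of the homeodomain protein Prospero that ends neuroblast self-renewal, lay 374 bp past the end of the gene. It was 83 bp from the TSS of mRpL40, which encodes a mitochondrial ribosomal protein, in the peak chr3R:11407789-11408212. Its signal was 62.7 in the pool, 36.1 in replicate 1 and 26.5 in replicate 2. By the rule of the nearest TSS this summit was counted for mRpL40, and the members with a listed summit were then 5 of 39, against 20.8% of all genes.

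The DNA at these summits is shown because it is what the peaks at members hold, each read 5′ to 3′ from the Release 6 genome as the 50 bases on either side of the summit, with bases of untranslated regions left out. For odd, whose summit lies in a 5′ UTR, the 100 bases before the TSS are given in place of the summit, at chr2L:3606757-3606856 on the minus strand. The others are SoxN at chr2L:8825488-8825588 on the plus strand, and gt at chrX:2430086-2430186 and oc at chrX:8650819-8650919 on the minus strand. The summit past the end of pros and by the TSS of mRpL40 is given at chr3R:11407991-11408051 on the plus strand. Capitals mark any match, on either strand, to 7 words of 6 bases. TATCGA is the core of the element bound by the promoter factor DREF. TAATTA is a core that many homeodomain proteins, the Engrailed type included, can bind. GAGAGA is bound by the GAGA factor encoded by Trl. CAGGTA is part of the site of Zelda, an activator of the earliest zygotic genes. TATAAA is the sequence of the TATA box of core promoters. AGATAA is a site of GATA-type zinc finger proteins. CACGTG is an E-box, the kind of site bound by some bHLH proteins. The sequence at grh is not used here.
odd: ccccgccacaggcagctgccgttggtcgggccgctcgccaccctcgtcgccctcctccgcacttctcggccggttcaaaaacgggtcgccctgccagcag
SoxN: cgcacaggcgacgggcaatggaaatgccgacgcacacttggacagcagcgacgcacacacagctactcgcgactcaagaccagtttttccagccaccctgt
gt: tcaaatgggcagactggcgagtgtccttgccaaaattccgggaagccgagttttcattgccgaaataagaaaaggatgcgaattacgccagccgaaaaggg
oc: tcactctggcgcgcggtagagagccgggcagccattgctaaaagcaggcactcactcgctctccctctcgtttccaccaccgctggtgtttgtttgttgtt
pros-mRpL40: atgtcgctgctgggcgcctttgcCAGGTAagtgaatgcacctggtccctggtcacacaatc
Within 50 bases of the summits, TATCGA was present at 39.0% of the 3393 listed summits on the arms and at 0 of the 7 at members. TAATTA was present at 4.98% of all and at 0 of the 7. The single match at the 7 was CAGGTA at the summit by mRpL40, a word present at 2.42% of all listed summits. That match lies past the 40 untranslated bases left out of its window, and it was not tested as a Zelda site.

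The ranked list holds peaks that failed the threshold as well, 136905 of them on the arms, and nearly every gene has one. A ranked summit lay in the gene or up to 2 kb outside it for 36 of 39 members (92.3%), against 96.5% of all genes. Within 1 kb of an own TSS the count was 35 of 39 (89.7%), against 92.7%. By class it was 11 of 12 gap, 8 of 8 pair-rule, 2 of 2 segment polarity and 14 of 17 neuroblast genes. Those without one at the TSS were knrl, ac, sc and l(1)sc. Within 500 bp of a TSS the count was 33 of 39, against 83.9%. The other pooled ranked list gave 33 of 39 (95.3% of all genes) by the wider rule and 31 of 39 (90.9%) at the TSS. Of the 10000 strongest ranked summits, 11 of 39 members had one at a TSS, against 44.9% of all genes. Summits per kb of gene and flank were alike, 1.10 over the members and 1.15 over all genes, so presence in this list separates few genes and the height of the peaks is more telling.

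The strongest ranked summit within 1 kb of an own TSS had a median signal of 37.7 over the 35 members with one, against 45.6 over 12928 genes. The median of isolated genes alone was not computed. The members ran from 19.2 to 131, while the middle 50% of all genes ran from 30.7 to 91.5. Of the 35 members, 12 lay above the all-gene median. The gap genes had the highest class median, 46.3, with 6 of 11 above the all-gene median. The pair-rule median was 35.1 with 3 of 8 above, the neuroblast median was 35.0 with 3 of 14 above, and gsb and gsb-n were both below. Taking the summit nearest the TSS in place of the strongest turned the order, with 34.4 for the members and 32.4 for all genes.

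**Figure D2:**
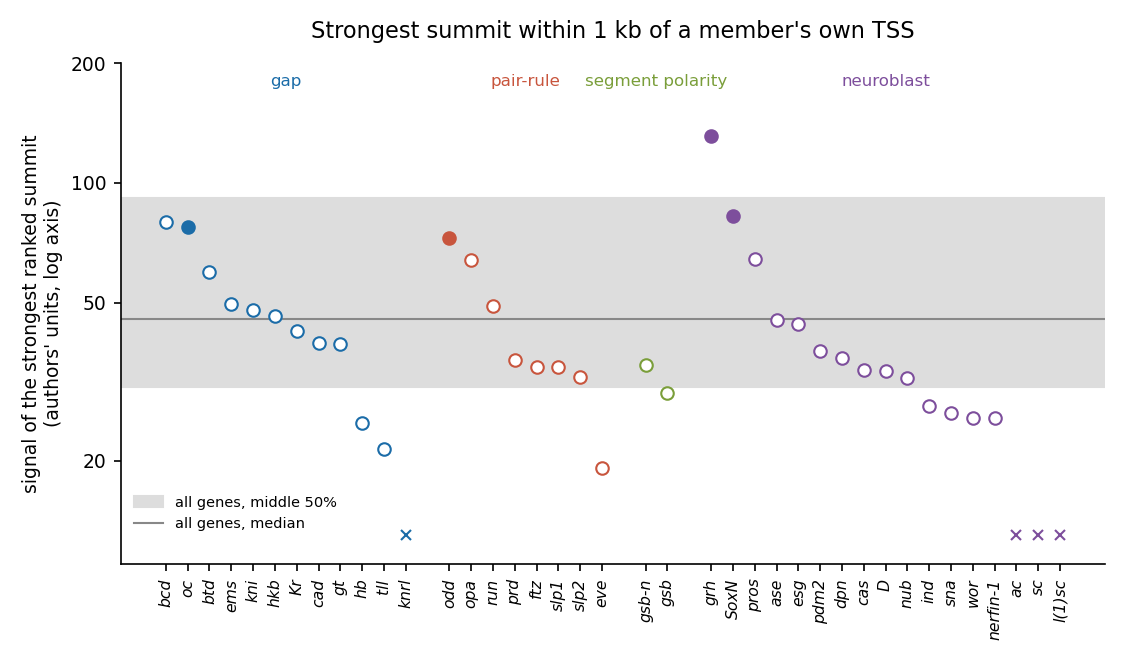
Signal of the strongest ranked summit within 1 kb of an own TSS (y axis, log scale, authors' units) for each member, ordered within its class. Filled points are in the larger thresholded list, crosses mark members with no such summit and have no value, the line is the all-gene median of 45.6 and the grey band the middle 50% of all genes, and the members run from 19.2 for eve to 131 for grh.

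The strongest summit was within 250 bp of the member's own TSS for 20 of 35 (57.1%). This was so for 47.7% of all genes with such a summit and 43.8% of isolated genes. It was upstream of the TSS for 18 of 35 (51.4%), against 55.9% of all and 47.8% of isolated genes. The irreproducible discovery rate (IDR) is the authors' measure of how likely a peak is not to be found again, with low values for the most reproducible peaks. It was above 0.1 at the strongest summit of 25 of 35 members (71.4%), against 61.8% of all genes and 78.5% of isolated genes. It was above 0.5 for 22 of 35 (62.9%), against 44.4% of all and 58.8% of isolated genes. The members thus lay nearer to the isolated genes in this measure, though only slightly so at 0.1. The 35 members were not limited to isolated ones. The plot of ranked summits around each start shows them spread on both sides of the TSS.

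**Figure D3:**
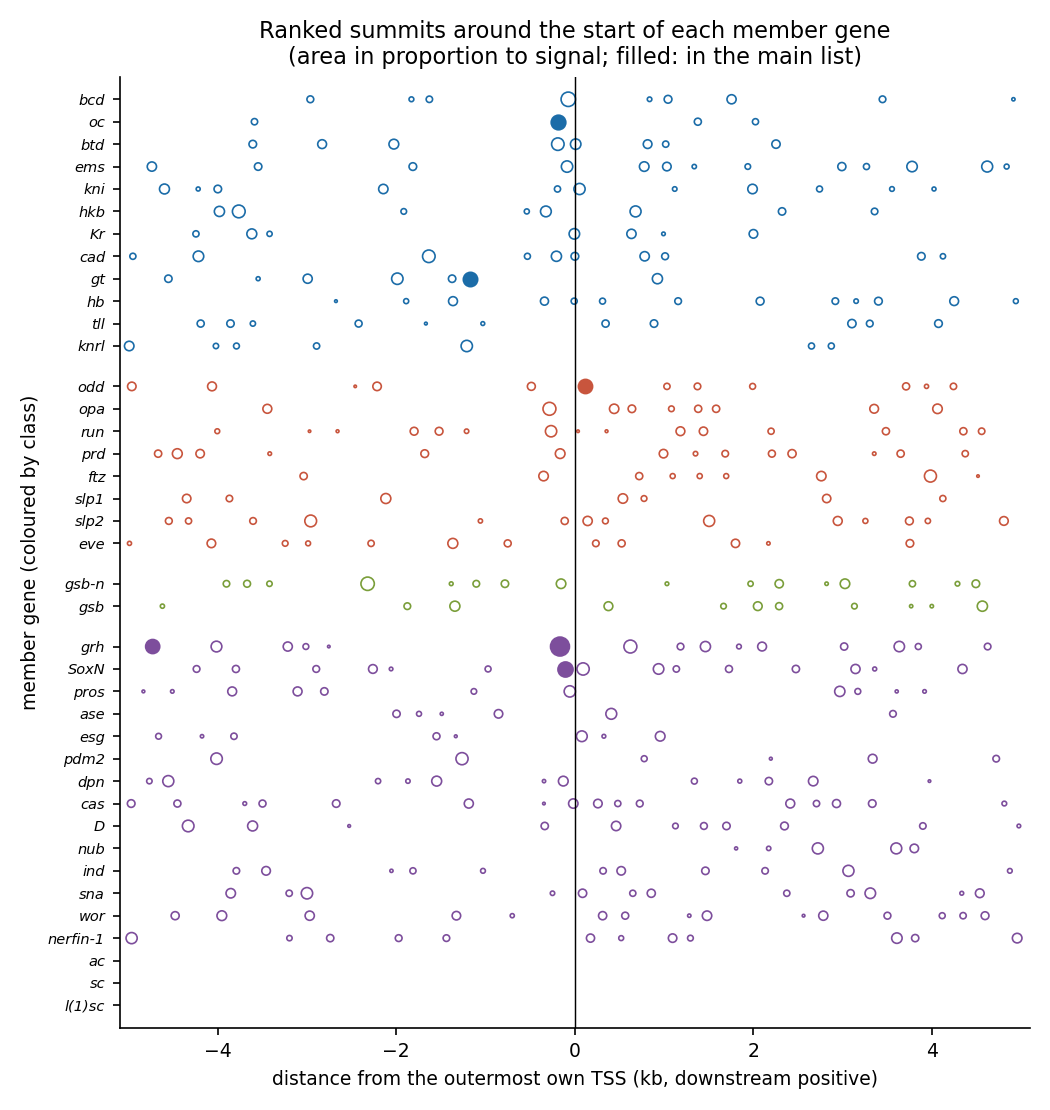
Ranked summits within 5 kb of the outermost TSS of each member (x axis, kb, downstream positive), one row per gene and coloured by class, with circle area in proportion to signal and filled circles in the larger thresholded list. Rows for ac, sc and l(1)sc are empty, and the filled circles near the line are at oc, odd, grh and SoxN.

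Among the gap genes, bcd came next after the listed ones. It encodes Bicoid, the maternal homeodomain protein of the anterior. Its ranked summit lay 72 bp upstream of its TSS with a pooled signal of 79.6, 55.1 in replicate 1 and 27.6 in replicate 2. The pooled signal was above that of oc, but the IDR was 0.0141, outside the list, where oc at 0.00488 was inside. Kr, a zinc finger gap gene, had a summit 4 bp upstream of its TSS with a signal of 42.4 and an IDR of 0.0224, overlapped only by a peak of 25.3 in replicate 2. The head gap genes btd and ems, an Sp-type zinc finger and a homeodomain gene, had summits 189 bp and 86 bp upstream with signals of 59.9 and 49.7 and IDR values of 0.0577 and 0.0917.

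The remaining gap genes were lower or less reproducible. The nuclear receptor gene kni had 47.9 and the terminal gene hkb had 46.3. The homeodomain gene cad had 39.6, and at gt the strongest summit inside the 1 kb window had 39.4. The zinc finger gene hb had 24.9, and the terminal nuclear receptor gene tll had 21.4, the lowest of the class, 889 bp downstream of its TSS. At tll a peak of replicate 2 with 15.8 overlapped this summit, and none of replicate 1. The IDR values of these genes ran from 0.269 at cad to 0.894 at hb and tll. No ranked summit lay within 1 kb of a TSS of knrl, the neighbour and paralog of kni, though 28 lay in or near the gene, the strongest at 49.4 with an IDR of 0.749.

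Of the pair-rule genes, opa stood just outside the list. It encodes a zinc finger protein that alters how other pair-rule factors act late in the cascade. Its summit 283 bp upstream of the TSS had a signal of 64.1 and an IDR of 0.0104, where odd, just inside, had 0.00705. In replicate 1 it had 46.6 and was listed; no replicate 2 peak overlapped it. The Runt-domain gene run had 49.1 with an IDR of 0.745. The paired-type homeodomain gene prd had 35.8, the homeodomain gene ftz 34.4, and the paired forkhead genes slp1 and slp2 had 34.4 and 32.5. The homeodomain gene eve had 19.2, the lowest of all 35 members, 526 bp downstream of its TSS, with 8.63 in replicate 1 and 17.2 in replicate 2. These last 5 genes had IDR values from 0.580 to 0.800.

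The segment polarity genes gsb and gsb-n, neighbours that encode related Pax proteins, had 29.6 and 34.9, the first 378 bp downstream and the second 153 bp upstream of the TSS. For gsb the replicates gave 9.49 and 22.2, and for gsb-n they gave 21.9 and 18.6. Both sites had an IDR near 0.5, at 0.522 and 0.485.

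Among the neuroblast genes, pros had a further summit inside the gene, 22 bp upstream of 1 of its 4 TSS. It had a signal of 64.3 and an IDR of 0.0188, outside the list. The replicates gave 27.2 and 35.8 there. At the outermost pros TSS a ranked summit lay 55 bp upstream, with 48.9. Apart from grh, SoxN and pros, the members of the class with a ranked summit at the TSS were at 45.1 or below. The proneural-type gene ase had 45.1, and the Snail-family genes esg, sna and wor had 44.2, 26.4 and 25.7. The POU genes pdm2 and nub had 37.7 and 32.3, and the temporal zinc finger gene cas had 33.8. The bHLH repressor gene dpn had 36.2, the Sox gene D had 33.6, the columnar homeodomain gene ind had 27.5, and the zinc finger gene nerfin-1 had 25.6, the lowest of the class, 177 bp downstream of its TSS. At nerfin-1 a peak of replicate 1 with 18.0 overlapped this summit, and none of replicate 2. The IDR values of these genes after pros ran from 0.502 at ind to 0.894 at nerfin-1.

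The sites just below the threshold are shown for bcd, opa and pros, whose strongest summits lay nearest to it with a signal above 60. They are the same 50-base flanks of the Release 6 genome with untranslated bases left out, bcd at chr3R:6759488-6759588 on the minus strand, opa at chr3R:4852480-4852580 and pros at chr3R:11372716-11372787 on the plus strand. None of the 7 words was present, so there are no capitals. The bcd window is 31.7% G and C, and the opa window 58.4%.
bcd: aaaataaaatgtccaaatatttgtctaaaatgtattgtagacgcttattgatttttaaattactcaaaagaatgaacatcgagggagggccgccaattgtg
opa: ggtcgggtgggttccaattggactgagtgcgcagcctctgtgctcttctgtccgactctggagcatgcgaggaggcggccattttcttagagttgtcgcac
pros: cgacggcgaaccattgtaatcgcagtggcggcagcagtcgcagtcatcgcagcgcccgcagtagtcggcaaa
Allowing ranked summits with an IDR of up to 0.05 would add opa, bcd, pros and Kr at the TSS, giving 8 of 39 members (20.5%) against 33.3% of all genes. At an IDR of up to 0.1 the count was 10 of 39 (25.6%), against 36.4%. Those 10 were 5 gap, 2 pair-rule and 3 neuroblast genes.

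The achaete-scute genes ac, sc and l(1)sc, bHLH proneural genes that give cells the capacity to become neuroblasts, held no summit of the main pooled ranked list in the gene or up to 2 kb outside it. In that list 490 of all genes (3.51%) were like this, and of the members these 3. In the other pooled ranked list Kr, hkb and esg lacked one as well. In the 44.8 kb from 2 kb before ac to 2 kb past l(1)sc, chrX:368031-412817, there were 15 of the 24730 pooled ranked summits on X. All 15 lay away from these genes, and no thresholded list had a summit there. The replicates differed there, with 7 of 19365 ranked summits on X in replicate 1 and 30 of 16604 in replicate 2. Replicate 2 alone had ranked summits within 1 kb of a TSS of sc, at 23.2, and of l(1)sc, at 19.3. The remaining gene of the complex, ase, had the pooled summit given above.

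The replicates could be set side by side at 25 of the 35 strongest summits (71.4%), where a ranked peak of each overlapped the pooled one. This was so for 77.4% of all genes with such a summit and 67.5% of isolated genes. Replicate 1 alone had a peak at 3, replicate 2 alone at 6, and neither at 1, esg. The same split was not counted over all genes. Where both had a value, the deposited signal was higher in replicate 1 at 15 of 25 (60%), against 72.3% of 10011 genes and 63.7% of 1285 isolated genes. A ranked summit of replicate 1 lay in the gene or up to 2 kb outside it for 33 of 39 members (95.4% of all genes) and within 1 kb of an own TSS for 29 (89.8%). For replicate 2 these counts were 39 (96.4%) and 36 (86%). Of the 12 gap genes, 7 had such a TSS summit in replicate 1 and 11 in replicate 2, and all 8 pair-rule genes had one in both. Within 1 kb of an own TSS the median signal was 21.9 over 29 members in replicate 1, against 28.9 over all genes. In replicate 2 it was 21.9 over 36 members, against 23.3.

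**Figure D4:**
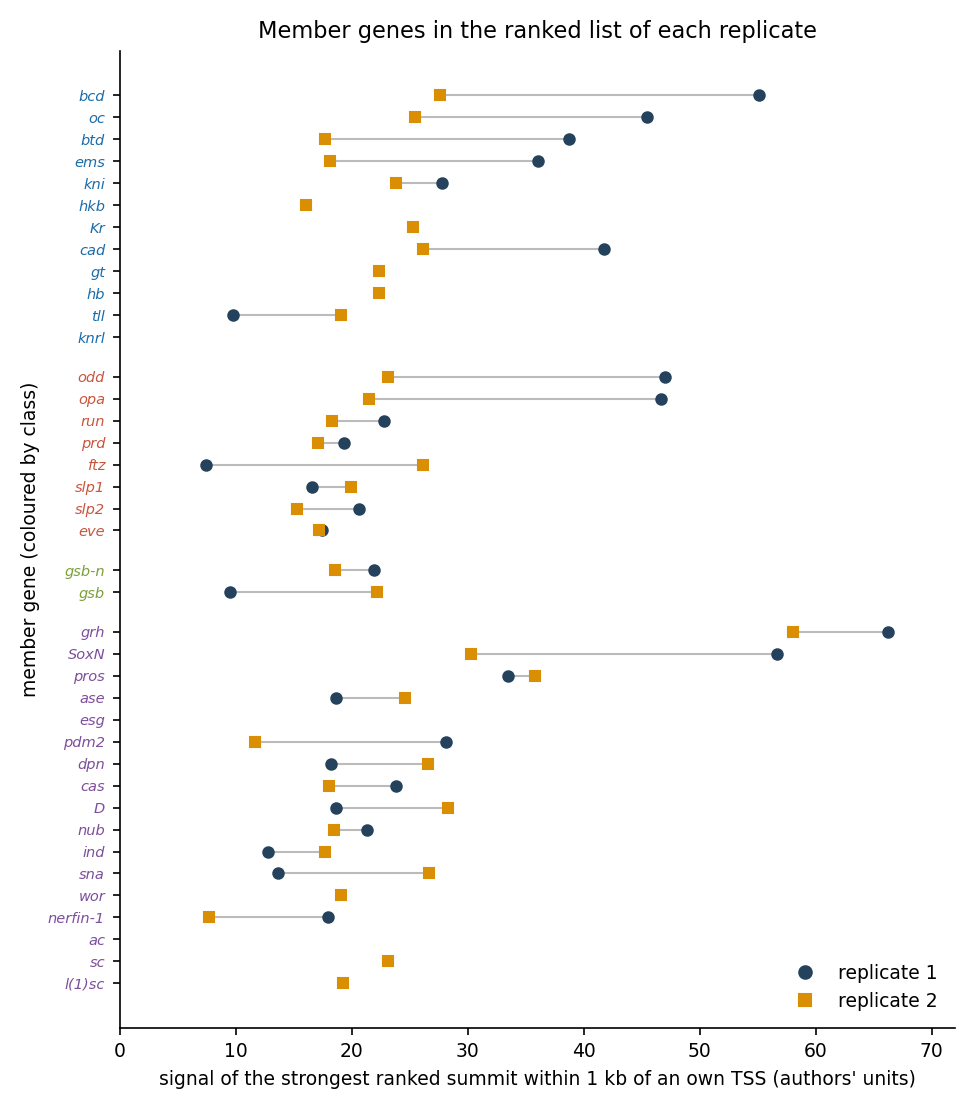
Signal of the strongest ranked summit within 1 kb of an own TSS (x axis, authors' units) in replicate 1 (circles) and replicate 2 (squares) for each member, joined by a line where both have one. The member grh is the highest in both replicates, at 66.3 and 58.0, while bcd, oc, odd, opa and SoxN are higher in replicate 1.

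Listed summits lay farther from these genes than from most. The median distance from a member's TSS to the nearest listed summit was 27.4 kb, against 6.89 kb over all genes. The members also stand farther from other genes, and this distance was not computed for isolated genes alone. The members ran from 0.041 kb at grh to 206 kb. The class medians were 27.3 kb for gap, 23.4 kb for pair-rule, 18.9 kb for segment polarity and 40.9 kb for neuroblast genes.

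**Figure D5:**
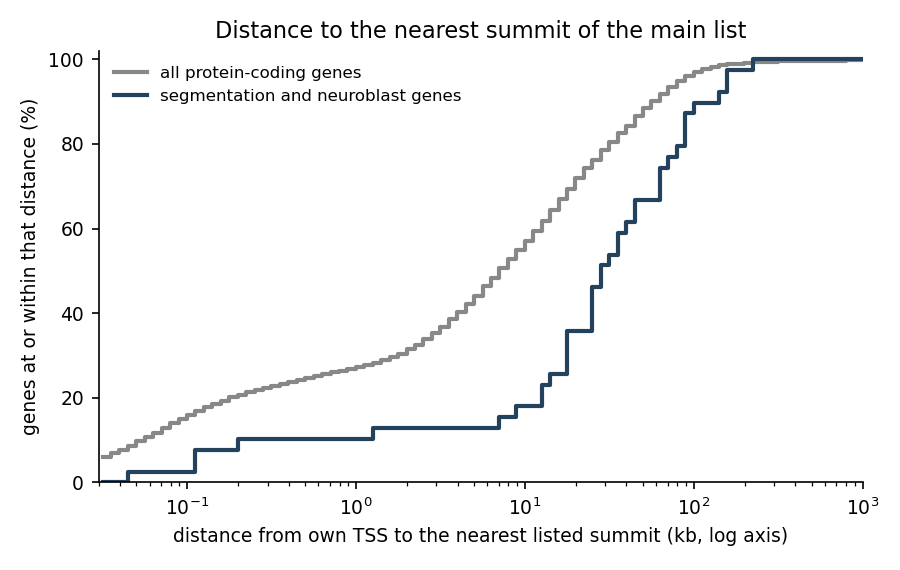
Cumulative percentage of genes (y axis) by distance from an own TSS to the nearest listed summit (x axis, kb, log scale), for all protein-coding genes and for the members. The curve of the members lies mostly to the right of that of all genes, with medians of 27.4 kb and 6.89 kb.

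Between 2 and 10 kb from a member there were 9 more listed summits, and none had a member's TSS as its nearest. For 7 of the 9, another gene's TSS was within 1 kb. The same shares over all listed summits were not computed, so these counts describe the 9 summits alone. The strongest lay 8291 bp past eve and 73 bp from the TSS of TER94, with a signal of 753. Others were at PICK1 near pdm2 (157), Pomp near cad (157), Irbp near pros (270), nej near btd (95.9), and olf186-M (80.3) and Orai (458) past the end of grh. The 2 more than 1 kb from any TSS lay upstream of eve and of grh. The summit 6483 bp upstream of eve was 1478 bp from the TSS of CG12134. Its pooled signal was 115, with 107 in replicate 1 and 22.3 in replicate 2. The summit 4730 bp upstream of grh was 3532 bp from the TSS of Dhit, with 71.8 in the pool, 52.2 in replicate 1 and 19.3 in replicate 2. Only replicate 1 listed these 2 summits, and the conservative list held neither.

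The promoters of the members, from 250 bases before to 50 after the outermost TSS, differed in word content from those of all genes. TATCGA was in 0 of 39 member promoters and in 27.7% of all. Over all genes it was in 58.4% of those with a listed summit at the TSS and in 16.2% of the rest. CAGGTA was in 14 of 39 (35.9%), against 6.24%, in 8 neuroblast, 4 pair-rule and 2 gap genes. GAGAGA was also in 14 of 39 (35.9%), against 12.3%, in 6 gap, 6 neuroblast, 1 pair-rule and 1 segment polarity gene. TAATTA was in 1, at btd, against 20.4%. TATAAA was in 11 (28.2%), against 45.8%, AGATAA in 3, against 18.7%, and CACGTG in 3, against 4.2%. Among isolated genes alone the shares were 16.5% for TATCGA, 15.9% for TAATTA, 20.1% for GAGAGA, 6.74% for CAGGTA and 36.6% for TATAAA. For AGATAA the share was 16.1% and for CACGTG 4.46%. The base composition of member promoters was not set against that of all promoters.

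Promoters of 4 members, chosen because they hold both CAGGTA and GAGAGA, are shown as the 250 bases before the outermost TSS. With them are brat and baz, from a list of regulators and cofactors of these genes. These 2 were chosen because their starts have listed summits, of 423 and 331, and hold TATCGA. The contrast in these words was thus set by the choice of genes. The stretches shown are esg at chr2L:15333616-15333865 on the plus strand, sna at chr2L:15478261-15478510 on the minus strand, ac at chrX:369781-370030 and sc at chrX:395810-396059 on the plus strand, brat at chr2L:19133566-19133815 and baz at chrX:17159756-17160005 on the plus strand. Capitals mark the same 7 words on either strand. In ac, GAGAGA and AGATAA overlap, and in brat the 2 TATCGA matches overlap, 1 on each strand.
esg: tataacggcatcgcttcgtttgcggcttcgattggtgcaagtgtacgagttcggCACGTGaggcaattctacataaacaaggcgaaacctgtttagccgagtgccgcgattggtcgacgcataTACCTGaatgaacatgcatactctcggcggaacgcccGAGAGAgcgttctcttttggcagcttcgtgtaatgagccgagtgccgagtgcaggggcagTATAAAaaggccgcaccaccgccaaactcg
sna: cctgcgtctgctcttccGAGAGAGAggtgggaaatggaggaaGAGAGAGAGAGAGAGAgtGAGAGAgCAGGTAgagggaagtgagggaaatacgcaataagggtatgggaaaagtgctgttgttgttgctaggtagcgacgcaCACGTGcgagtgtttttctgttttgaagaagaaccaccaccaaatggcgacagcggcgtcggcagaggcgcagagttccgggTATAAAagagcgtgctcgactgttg
ac: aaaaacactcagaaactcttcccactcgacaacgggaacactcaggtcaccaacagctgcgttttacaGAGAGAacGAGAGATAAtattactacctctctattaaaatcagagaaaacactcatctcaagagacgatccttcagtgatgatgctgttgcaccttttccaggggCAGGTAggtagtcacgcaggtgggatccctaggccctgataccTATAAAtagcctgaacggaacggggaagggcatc
sc: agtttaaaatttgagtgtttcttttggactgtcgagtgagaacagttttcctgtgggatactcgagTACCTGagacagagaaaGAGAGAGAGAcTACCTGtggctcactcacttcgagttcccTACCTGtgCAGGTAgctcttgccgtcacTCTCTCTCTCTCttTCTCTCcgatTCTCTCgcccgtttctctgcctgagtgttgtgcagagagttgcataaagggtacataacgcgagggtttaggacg
brat: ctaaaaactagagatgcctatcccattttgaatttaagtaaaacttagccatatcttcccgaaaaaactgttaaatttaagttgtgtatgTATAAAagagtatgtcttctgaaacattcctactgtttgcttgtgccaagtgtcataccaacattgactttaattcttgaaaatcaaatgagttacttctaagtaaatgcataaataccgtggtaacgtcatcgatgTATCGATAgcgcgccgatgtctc
baz: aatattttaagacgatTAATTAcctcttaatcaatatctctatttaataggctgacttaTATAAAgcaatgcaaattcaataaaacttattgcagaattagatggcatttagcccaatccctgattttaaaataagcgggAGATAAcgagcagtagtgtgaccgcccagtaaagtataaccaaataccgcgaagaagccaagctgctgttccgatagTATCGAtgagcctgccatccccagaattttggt
The stretch before sc held 4 matches to CAGGTA and 9 to GAGAGA, and the one before sna held 1 and 9, counting overlapping matches. Neither gene had a listed summit within 1 kb of its TSS. A match is a description of the letters and was not tested as a binding site.

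Regulators and cofactors of these factors had more listed summits. Of 26 such genes, 15 (57.7%) had one by the wider rule and 13 (50%) within 1 kb of an own TSS, against the same 37.7% and 27.2% of all genes. The strongest at a TSS were at nos, the posterior translational repressor nanos, with a signal of 1266, at Stat92E, the transcription factor of the JAK/STAT pathway, with 679, and at brat, which restrains neuroblast growth, with 423. The nos summit was nearest to the TSS of a neighbour, CG11779, while those at Stat92E and brat lay 55 bp and 136 bp from their own. By the rule of the nearest TSS the count was 11 of the 26 (42.3%), against 20.8% of all genes. The corepressor gene gro had 249, 19 bp from its TSS. These genes lie closer to others than the members do, with a median of 2.32 kb to another gene's TSS, and are long, with a median of 14.1 kb against 2.17 kb over all genes. Among the 10 isolated ones 3 had a listed summit at the TSS, against 11.9% of isolated genes.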

How the data were processed

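Peak lists from 2 biological replicates on dm6 were used as deposited. Per the labels and the deposited notes, each replicate and the pooled replicates have a list ranked by irreproducible discovery rate (IDR) and a shorter one past a threshold. No source used here gives the aligner or the peak caller. The deposited signal is the authors' peak height relative to a control, on an unstated scale. The deposited score is the authors' whole-number rescaling of the IDR up to 1000, and the lowest score in the thresholded lists was 830, an IDR of 0.0100. Ranked lists also hold the −log10 of the IDR, as deposited, from which IDR values were computed here.

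The larger pooled thresholded list (3406 peaks, 3393 on the arms) and the pooled ranked list that contains it (139890 peaks) were the main lists. Genes and TSS came from Ensembl release 115 and sequence from the Release 6 genome, in which all peaks lay within the arm lengths. A replicate's peak was matched to a pooled peak where they overlapped by at least 1 bp. Words were searched on both strands. The companion genes h, nos and Dl are annotated as hry, nanos and Delta.

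The members, gene lists and words were chosen with earlier results of these data known, and there is 1 group, so no test was made and each count stands beside the share of all genes under the same rule. Every member was accounted for. Full values were given for members with a listed summit, for the strongest and weakest of each class, and for the 3 companions with the strongest summits. The assignment of summits to genes was tested on simulated data. Tables were handled in pandas 2.3.3 and numpy 2.4.6 under Python 3.11.15, with figures from matplotlib 3.10.9. Read counts and control libraries were not analysed here.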

Additional observations from a re-analysis of the deposited data

How the results depend on the processing

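The count of members with a listed summit in the gene or up to 2 kb outside it (6) was 3 in the conservative list, 1 to 3 in the lists of single replicates, 0 in the upper 50% of peaks by signal, 2 for the gene body alone (9.54% of all genes) and 10 with a 10 kb window (61.1%). Within 1 kb of an own TSS (4) it was 2, 1 to 3 and 0 in the same lists, and 8 for ranked summits at an IDR of up to 0.05, an alternative added after the data had been seen. In the gap class (2) these counts were 1 in the conservative list, 0 to 0 in single replicates, 0 in the upper 50%, 0 for the gene body and 4 at 10 kb. In the pair-rule class (1) they were 0, 0 to 1 and 0, with 2 at 10 kb, and in the neuroblast class (3) they were 1 to 2 in single replicates, 0 in the upper 50% and 1 for the gene body. The segment polarity count was 0 under every alternative run. For each class count the share of all genes is the one given above for the same list or window. Of the 10000 strongest ranked summits, 11 members had one at a TSS, against 44.9% of all genes. The median signal at the TSS (37.7) was 36.2 in the other pooled ranked list (46.0 over all genes) and 21.9 to 21.9 in single replicates. With the nearest summit it was 34.4 against 32.4 over all genes, so the order was reversed, and the cause was not tested. The median distance to a listed summit (27.4 kb) was 25.7 to 36.3 kb in single replicates. With any TSS, 3 promoters held TATCGA, those of cad, grh and run, against 31.3% of all genes. No paired analysis was possible because there is 1 group. With 2 replicates of unknown depth and no read counts, a site missing from a list may be undetected rather than absent.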
